A study of Mus musculus with 12 samples.

Results

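The effect of a dopamine lesion on striatal RNA was compared between a single injection of L-DOPA and 9 days of injections. All 12 RNA-seq libraries of the series were used, 3 from each of 4 groups, so the question covers every sample. The measure is a difference of differences: lesioned minus unlesioned striatum after chronic L-DOPA, less the same difference after acute L-DOPA. It was computed for 1 transcript per gene symbol, the transcript with the highest mean level over the libraries, in counts scaled to library size (CPM). Of 52169 gene symbols in the deposited table, 20664 had enough counts to be tested, and the lesion effect changed for 1053 of them at a Benjamini-Hochberg adjusted p under 0.05 in edgeR. Each of these genes was then placed by the side that moved between acute and chronic treatment, which separates 991 genes whose lesioned striatum changed from 28 genes where the unlesioned striatum alone changed.

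Dopamine acts in the striatum on spiny projection neurons that carry either D1 receptors, which raise cAMP and drive the direct pathway, or D2 receptors, which lower cAMP and mark the indirect pathway. When 6-hydroxydopamine (6-OHDA) destroys the dopamine fibres, D1 neurons become supersensitive, and L-DOPA, the precursor of dopamine, then switches on immediate early genes through cAMP, protein kinase A and the MAP kinase ERK. Repeated L-DOPA brings on involuntary movements known as dyskinesia, for which dynorphin peptides and FosB proteins in D1 neurons are classical molecular markers.

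The mice were female C57BL/6J animals whose right medial forebrain bundle received 6-OHDA after desipramine, which spares noradrenergic neurons. After 2 weeks of recovery, all groups received L-DOPA at 10 mg/kg with benserazide at 7.5 mg/kg, an inhibitor of its conversion outside the brain, on 1 day (acute) or on each of 9 days (chronic), and striatal punches were taken 1 hour after the last injection. The unlesioned striatum of the left hemisphere comes from treated mice too, and no saline-treated library is part of the comparison, so lesion and drug cannot be told apart within it. The age of the mice is not given in the sources used here. The labels number the libraries 1 to 3 in each group and count 12 mice, whereas the study's text describes the unlesioned side as each mouse's own control; the p-values measure the spread between these libraries.

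The libraries held 18373868 to 36492201 counts on the transcripts used, and a gene had a median coefficient of variation between 0.079 and 0.115 within the 4 groups. Counting noise alone at 3 counts corresponds to between 0.081 and 0.166 CPM, depending on the library. The 14 markers of striatal spiny neurons summed to 13280 to 17616 CPM. Both chronic libraries numbered 2 stood apart from the other 4 chronic libraries: their 12 oligodendrocyte markers summed to 10512 and 11303 CPM against 5887 to 8241 CPM, and their 10 pallidal and septal markers to 250.3 and 258.6 CPM against 162.8 to 192.4 CPM. The chronic unlesioned library numbered 2 also held 2326 CPM of choroid plexus and ependymal markers, against 32.7 to 83.7 CPM in the other 11 libraries. Some values without these libraries are given beside the results.

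The lesion effect is signed, lesioned minus unlesioned. A gain is a move of it upwards and a loss a move downwards between acute and chronic treatment, so that a loss can also be a lower lesioned side that appeared with chronic treatment, and a gain one that vanished. The effect was higher after chronic treatment for 744 genes, 3.6% of those tested, and lower for 309 genes, 1.5%. In the lesioned striatum itself, 3041 genes (14.7%) were higher after chronic treatment and 2852 (13.8%) lower. In the unlesioned striatum 277 genes (1.34%) were higher and 396 (1.92%) lower. The lesion effect taken alone was called higher for 1164 genes (5.63%) and lower for 1098 (5.31%) after acute treatment, and higher for 2239 (10.8%) and lower for 1722 (8.33%) after chronic treatment. The median change over all genes tested was -0.02 on the log2 scale, on which all differences below are given. At the edge of the threshold stood Chchd7 and Rnf103, just inside at an adjusted p of 0.0499, and AK035403 and Cldn23, just outside at 0.0506.

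The classes rest on the same values as the calls and are a description without a test. The lesioned side alone moved for 963 genes (688 gains and 275 losses), both sides moved for 28 (17 and 11), the unlesioned side alone for 28 (19 and 9), and neither side was called for 34 (20 and 14). Of the 705 gains on the lesioned side, 486 had no called lesion effect after acute treatment and a higher lesioned side after chronic treatment. For another 102 the lesioned side was higher after both treatments and the difference grew, while 62 were lower on the lesioned side after acute treatment and not called after chronic treatment, and 35 went from lower to higher. Of the 286 losses, 142 became lower on the lesioned side only after chronic treatment, 83 were higher after acute treatment and not called after chronic treatment, 29 stayed higher by less, and 9 went from higher to lower. Changes of at least 1 on the log2 scale were found for 276 of the 991 genes of the lesioned side and for 5 of the 28 of the unlesioned side alone. These 5 averaged 0.36 to 2.74 CPM and stayed in their class in 1 to 4 of the 12 fits that left out 1 library.

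**Figure D1:**
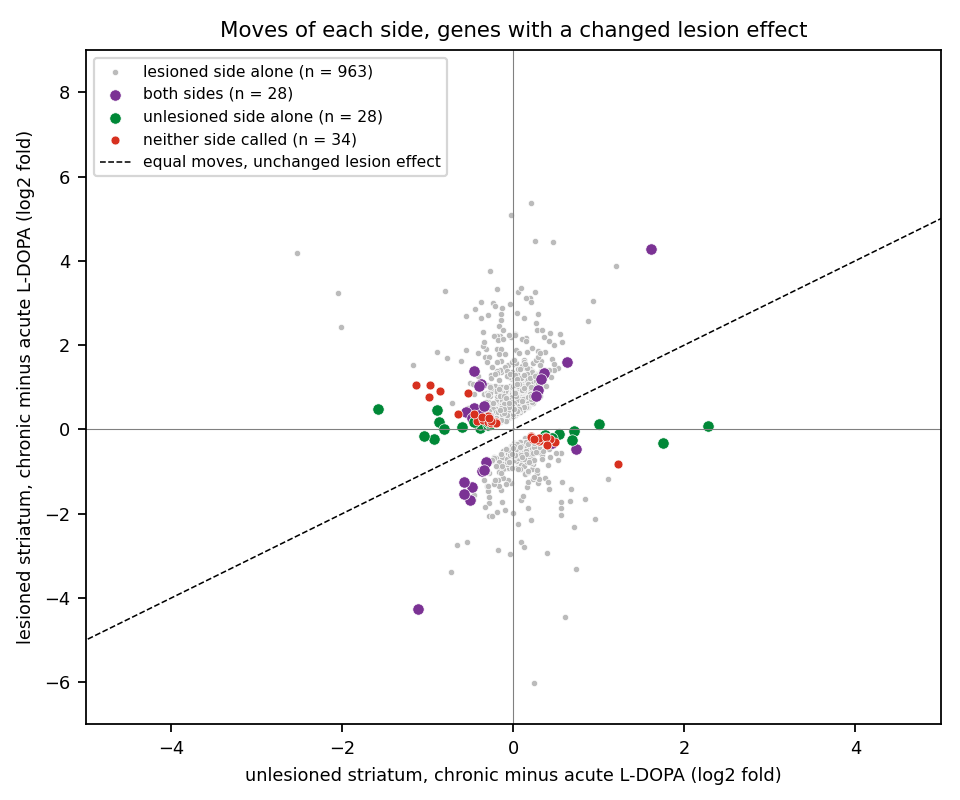
Each point is 1 of the 1053 genes with a changed lesion effect, placed by the chronic minus acute difference of its unlesioned (x axis) and lesioned striatum (y axis), both log2 fold. The 963 grey points of the lesioned side alone lie mostly along the vertical axis, the 28 green points of the unlesioned side alone lie along the horizontal axis, and the dashed line marks equal moves.

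The activin and TGF-beta system held the largest gain among genes with a name and a mean of at least 1 CPM. Inhba encodes the beta A subunit of activin, a secreted growth factor, and its libraries read 4.48, 4.55 and 5.57 CPM in the acute unlesioned, 8.47, 6.96 and 6.200 in the acute lesioned, 5.29, 4.78 and 6.63 in the chronic unlesioned and 315, 330.4 and 257 in the chronic lesioned group. The chronic lesioned libraries stood alone, and the other 9 read 4.48–8.47 CPM. The lesion effect of Inhba went from 0.58 to 5.74, a change of 5.16 ± 0.21 (SE) with an adjusted p of 1.81e-08. Follistatin (Fst), which binds and blocks activin, read 43.1–45.6 CPM in the chronic lesioned libraries against 3.66–6.11 in the rest, and its effect changed by 2.82 ± 0.15. The ligand genes Tgfb1 and Tgfb3 changed by 2.47 ± 0.17 and 1.79 ± 0.13, and the activin receptor Acvr2a by 0.67 ± 0.18, a call that was lost without 10 of the 12 libraries in turn. These 5 of 21 tested members were called, all as gains of the lesioned side, against 3.6% of all genes, and 0 lost effect.

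Some peptide precursor genes gained effect too, among them the dynorphin precursor of the direct pathway. Prodynorphin (Pdyn), the dynorphin precursor of D1 neurons, read 151, 136 and 150.0 CPM in acute unlesioned, 82.5, 85.00 and 90.01 in acute lesioned, 159.7, 119 and 188 in chronic unlesioned and 933, 861 and 860.4 in chronic lesioned striata. It was thus lower on the lesioned side after a single injection and higher after repeated injections, without overlap of the groups in either case. The 2 lesion effects were -0.76 and 2.51, and the change was 3.27 ± 0.17 with an adjusted p of 7.98e-08. Trh, the precursor of thyrotropin-releasing hormone, rose from 6.16–8.06 to 31.5–35.5 CPM on the lesioned side with 5.41–7.22 on the unlesioned side, a change of 2.22 ± 0.18. Smaller gains were those of the granins Chga (1.15 ± 0.15) and Scg2 (1.06 ± 0.15) and of neuropeptide Y (Npy, 0.66 ± 0.11). In all, 5 of 19 tested peptide precursor genes gained and 0 lost effect, against 3.6% and 1.5% of all genes. The list median was 0.02, against -0.02 for all genes tested.

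Among 24 tested peptide receptor genes, 3 gained and 1 lost effect, against 3.6% and 1.5% of all genes. As each library was left out, the gains ranged from 3 to 5 and the losses from 0 to 1. The somatostatin receptor gene Sstr2 read 7.48, 3.28 and 5.78 CPM in acute unlesioned, 6.42, 5.03 and 6.38 in acute lesioned, 6.204, 2.97 and 10.5 in chronic unlesioned and 136, 140.0 and 119.8 in chronic lesioned libraries. Only the last group was separate, and the change was 4.20 ± 0.46 (adjusted p = 7.47e-05). Sstr4 moved from 4.03–5.66 CPM, below its unlesioned 8.63–9.203 CPM, to 20.1–22.2 CPM, above the chronic unlesioned 7.18–9.01 CPM, a change of 2.26 ± 0.17. Vipr1, a receptor for vasoactive intestinal peptide, changed by 1.01 ± 0.18. The loss was in Galr2, a galanin receptor, at 1.77, 2.21 and 1.76 CPM in acute lesioned and 0.603, 1.05 and 0.703 in chronic lesioned striata with 0.248–0.722 CPM on the unlesioned side. Its change of -1.65 ± 0.45 sat at the threshold (adjusted p = 0.0477) and was not called without 10 of the 12 libraries in turn.

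Of 10 tested markers of D1 neurons, 5 gained and 0 lost lesion effect, with 3.6% and 1.5% of all genes called in these directions. The D1 receptor gene Drd1a read 327, 299.7 and 323 CPM in acute unlesioned and 53.4, 71.6 and 67.5 in acute lesioned striata, then 361, 315 and 329.7 in chronic unlesioned and 141, 105 and 158 in chronic lesioned striata. The lesioned side was the lower one in both treatments and the gap narrowed from -2.30 to -1.32, a change of 0.99 ± 0.19 (adjusted p = 0.00586). The muscarinic receptor Chrm4 (1.16 ± 0.18), the transporter gene Slc35d3 (0.96 ± 0.20) and the transcription factor gene Isl1 (0.93 ± 0.17), all markers of these neurons, gained as well. The other gain was Pdyn. Isl1 is listed for cholinergic interneurons as well and was the 1 gain among their 9 tested markers, whose median change was -0.24. The change was above 0 in 6 of the 10 D1 markers, and the median of the D1 list was 0.59. The count of gains stayed at 5 whichever library was left out. The markers summed to 1000 to 1044 CPM in acute unlesioned, 724.4 to 798 in acute lesioned, 950.5 to 1136 in chronic unlesioned and 1494 to 1768 in chronic lesioned libraries, and the last group holds the high Pdyn counts. Of 9 tested D2 neuron markers, 0 gained and 2 lost effect, the G protein-coupled receptor Gpr6 (-0.53 ± 0.12) and the kainate receptor subunit Grik3 (-0.90 ± 0.15). The losses numbered 1 to 2 as each library was left out, and the call of Gpr6 was lost without 3 of the 12 libraries in turn. In bulk tissue, fewer cells of a type and less RNA per cell cannot be told apart.

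Genes of cAMP signaling followed in part. Of 30 tested members, 6 gained and 1 lost effect, all on the lesioned side, against 3.6% and 1.5% of all genes. The gains ranged from 3 to 11 and the losses from 0 to 2 as each library was left out, with 11 gains without the chronic lesioned library numbered 2. The 6 include the phosphodiesterases Pde1c (1.02 ± 0.15), Pde4b (0.85 ± 0.12) and Pde4d (0.45 ± 0.11), which break down cyclic nucleotides, the D1 receptor gene and the catalytic kinase subunit Prkacb (0.44 ± 0.11). Drd4 was also called, at levels of 0.835–1.14 CPM in the chronic lesioned libraries and at most 0.308 CPM elsewhere, near the 3-count limit. The loss was Gpr6. The calls of Drd4, Pde4d and Prkacb were each lost without 7 of the 12 libraries in turn.

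Catecholamine synthesis had 2 gains and 0 losses among 9 tested genes, against 3.6% and 1.5% of all genes. Tyrosine hydroxylase (Th), which makes L-DOPA from tyrosine, read 7.29, 8.73 and 9.68 CPM in acute unlesioned, 5.08, 6.85 and 8.49 in acute lesioned, 8.39, 9.39 and 8.595 in chronic unlesioned and 46.5, 39.4 and 52.8 in chronic lesioned striata. The single injection left Th low on both sides and only the chronic lesioned libraries stood above, a change of 2.73 ± 0.23 (adjusted p = 6.3e-06). Pnmt, which makes adrenaline from noradrenaline, changed by 4.03 ± 0.40, from 0.331–1.01 to 10.2–12.2 CPM on the lesioned side.

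Effectors of synaptic activity formed the broadest neuronal group, with 13 gains and 1 loss among 25 tested members, against 3.6% and 1.5% of all genes, and a list median of 0.77. Rasl11a, a small GTPase, changed by 3.00 ± 0.26, the kinase Pim1 by 2.97 ± 0.23 and the kinase Plk3 by 1.64 ± 0.19. The neuronal pentraxins, secreted proteins that cluster glutamate receptors, rose together: Nptx1 read 123, 77.2 and 84.9 CPM in acute and 596, 556 and 638 in chronic lesioned striata, and Nptx2 78.1, 59.9 and 67.6 and 207, 225 and 213. Neither gene overlapped between those groups, and their changes were 2.52 ± 0.40 and 1.53 ± 0.16. For Ptgs2, the inducible cyclooxygenase, the estimate was 2.48 ± 0.67, called at an adjusted p of 0.0475 and lost without 8 of the 12 libraries in turn. The CREB-regulated kinase Sik1 gained 1.53 ± 0.10 and the scaffold Homer1 0.97 ± 0.14. The 1 loss was Sorcs3 (-0.99 ± 0.16), a sorting receptor at glutamatergic synapses, which went from higher to lower on the lesioned side.

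MAP kinase phosphatases moved in both directions. Dusp5, which inactivates ERK in the nucleus, read 46.6, 40.4 and 34.9 CPM in acute and 339, 293 and 354 in chronic lesioned striata, with 12.4–19.96 CPM on the unlesioned side, a change of 3.40 ± 0.18 (adjusted p = 7.96e-08). Dusp6, which inactivates ERK in the cytoplasm, went the other way, from 240.2, 349.6 and 293 to 102, 71.5 and 106 CPM on the lesioned side, a change of -1.19 ± 0.20. The lesioned groups of both genes were separate, with Dusp5 up and Dusp6 down. Dusp2 (2.34 ± 0.50), Dusp1 (1.17 ± 0.14), Dusp14 (1.14 ± 0.12) and the Ras pathway inhibitor Spred1 (0.66 ± 0.11) gained, and Dusp10 (-0.69 ± 0.18) lost effect, the last call being lost without 11 of the 12 libraries in turn. That makes 5 gains and 2 losses among 17 tested members, against 3.6% and 1.5% of all genes, with a list median of 0.06.

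Sterol synthesis had the highest share of called gains among the 41 gene lists examined. Of 24 tested genes of the sterol list, 16 gained and 0 lost effect, against 3.6% and 1.5% of all genes, and the list median was 0.62. Cyp51, the sterol demethylase of the pathway, read 48.3, 43.96 and 45.7 CPM in acute unlesioned, 53.1, 47.8 and 46.7 in acute lesioned, 38.6, 44.7 and 41.1 in chronic unlesioned and 91.2, 92.3 and 93.7 in chronic lesioned striata. The chronic lesioned libraries stood above the other 9, and the lesion effect went from 0.10 to 1.16, a change of 1.06 ± 0.10 (adjusted p = 2.55e-05). The squalene epoxidase Sqle (0.87 ± 0.11), the desaturase Sc5d (0.59 ± 0.11) and Insig1 (0.69 ± 0.14), which restrains sterol synthesis, gained as well, from acute lesion effects of -0.15, -0.01 and 0.06. On the lesioned side 20 of the 24 genes rose between acute and chronic treatment and 0 fell, while on the unlesioned side 1 rose and 2 fell. The 2 that fell were Dhcr7 and Sc4mol. Leaving out each library in turn left 12 to 15 gains and 0 losses in the list.

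**Figure D2:**
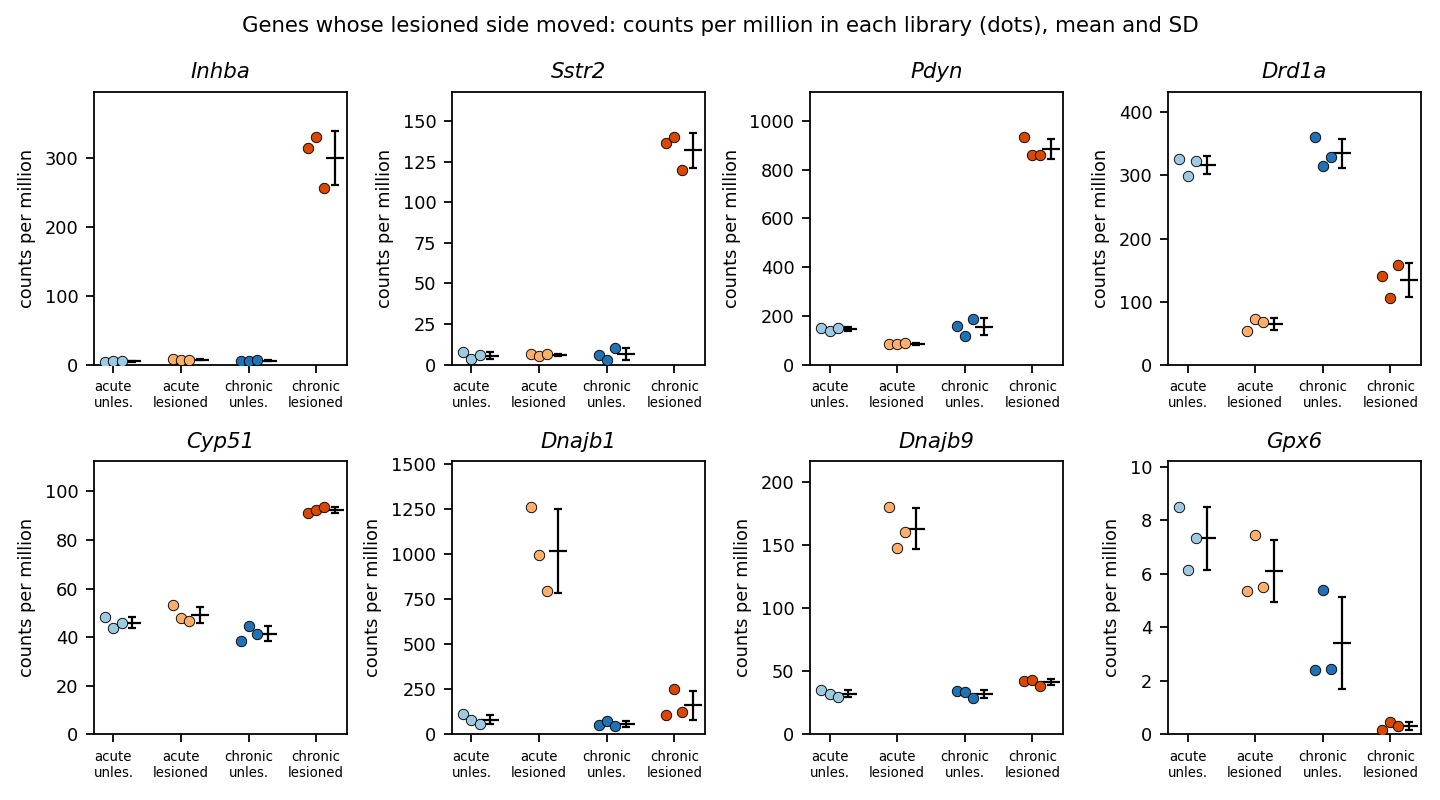
CPM values (y axis) of 8 genes whose lesioned side moved, with 1 dot per library, 3 libraries in each of the 4 groups, and the mean with its SD to the right of the dots. In Inhba, Sstr2, Pdyn and Cyp51 the chronic lesioned libraries lie above all others, in Drd1a they lie between the acute lesioned and the unlesioned libraries, in Dnajb1 and Dnajb9 the acute lesioned libraries are the high ones, and in Gpx6 the chronic lesioned libraries are the lowest.

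Other gains of the lesioned side, named by their size, were Epha2, an ephrin receptor tyrosine kinase (4.07 ± 0.26), Areg, the EGF receptor ligand amphiregulin (3.53 ± 0.56), Amigo3, a neuronal adhesion protein (3.31 ± 0.21), Nxph4, a neurexophilin (3.24 ± 0.27), and Tes, a focal adhesion protein (3.16 ± 0.31). Areg read 3.75, 3.203 and 3.34 CPM in acute and 27.6, 48.5 and 28.6 in chronic lesioned libraries, with 0.201–0.483 CPM on the unlesioned side, so its lesioned side was high after both treatments and higher after the second. Amigo3 overlaps Rnf123 on the other strand, and reads of the 2 genes cannot be told apart if strand was not used in counting. Lipg, an endothelial lipase, went from 3.25–5.799 to 20.9–35.9 CPM on the lesioned side, a change of 3.03 ± 0.35. Both GABA-synthesizing enzymes of the list, Gad1 (0.68 ± 0.15) and Gad2 (0.97 ± 0.10), gained effect, Gad2 with a rise on both sides. The call of Gad1 was lost without the acute lesioned library numbered 1.

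Because members moved together, the letters of the cAMP response element (TGACGTCA) and of 6 other motifs were searched on both strands of the 300 bases around each transcript start, 250 before and 50 after, read from the mm9 genome. The element occurred in 5.67% of the 705 gains of the lesioned side, 3.15% of the 286 losses, 0 of the 28 genes of the unlesioned side alone and 2.53% of the windows of all genes tested. For the EGR site (GCGNGGGCG) the shares were 16% of the gains, 8.39% of the losses and 8.8% of all windows, and for the AP-1 site (TGANTCA) 5.25%, 6.64% and 5.32%. In the class of the unlesioned side alone 17.9% of windows held the EGR and 14.3% the AP-1 letters, that is 5 and 4 genes. The windows of the gains held a median of 63% G and C against 58% in all windows, and the part of this difference in the shares was not tested. Heat shock elements lay in 1 window of the gains, 1 of the losses and 0.422% of all, sterol regulatory elements (TCACNCCAC) in 1.56% of the gains and 1.06% of all, CArG boxes in 1.56% and 1.31%, and endoplasmic reticulum stress elements in 1 gain and 0.0775% of all. In the sterol list the sterol regulatory letters lay in 0 of 24 windows, thus in 0 of the 16 called genes. Heat shock letters lay in 5 of 28 chaperone windows and 0 of the 3 called. The stress element lay in 6 of 25 endoplasmic reticulum stress genes and 0 of the 2 called. The cAMP response element lay in 3 of 30 immediate early factors (0 of 12 called) and 4 of 25 synaptic effectors (1 of 14 called). These counts describe letters in a window and do not show binding. Among the largest gains Sstr2, Epha2 and Areg hold the full cAMP response element, as do Scg2, Th and Dusp1. Their windows are shown, with that of Fosl2, a gene of the unlesioned side alone that holds an EGR site. Capitals mark the cAMP response element and, in Sstr2, Th and Fosl2, the EGR site, which in Th is read on the opposite strand.
Sstr2, chr11:113480406-113480705, plus strand: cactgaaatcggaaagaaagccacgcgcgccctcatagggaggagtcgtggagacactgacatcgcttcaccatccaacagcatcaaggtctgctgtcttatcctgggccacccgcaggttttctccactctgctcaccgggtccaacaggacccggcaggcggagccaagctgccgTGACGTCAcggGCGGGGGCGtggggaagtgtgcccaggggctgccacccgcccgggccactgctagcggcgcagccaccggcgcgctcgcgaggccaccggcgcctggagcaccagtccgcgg
Epha2, chr4:140856905-140857204, plus strand: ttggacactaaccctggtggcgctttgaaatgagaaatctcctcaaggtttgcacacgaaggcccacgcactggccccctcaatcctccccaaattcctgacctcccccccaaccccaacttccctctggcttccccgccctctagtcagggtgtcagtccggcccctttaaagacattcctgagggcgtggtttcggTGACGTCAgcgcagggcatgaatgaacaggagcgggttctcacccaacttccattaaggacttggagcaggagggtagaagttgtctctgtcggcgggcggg
Areg, chr5:91568375-91568674, plus strand: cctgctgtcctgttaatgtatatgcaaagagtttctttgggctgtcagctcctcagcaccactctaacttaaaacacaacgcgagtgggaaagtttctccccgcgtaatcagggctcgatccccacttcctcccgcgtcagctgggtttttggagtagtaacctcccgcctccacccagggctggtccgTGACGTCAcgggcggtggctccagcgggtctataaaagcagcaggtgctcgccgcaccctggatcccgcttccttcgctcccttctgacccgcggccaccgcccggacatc
Scg2, chr1:79436616-79436915, minus strand: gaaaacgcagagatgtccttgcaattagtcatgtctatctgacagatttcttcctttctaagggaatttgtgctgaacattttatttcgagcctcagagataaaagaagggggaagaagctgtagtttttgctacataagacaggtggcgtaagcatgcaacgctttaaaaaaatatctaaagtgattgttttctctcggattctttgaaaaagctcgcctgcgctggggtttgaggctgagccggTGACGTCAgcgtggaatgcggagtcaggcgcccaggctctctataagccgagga
Th, chr7:150085822-150086121, minus strand: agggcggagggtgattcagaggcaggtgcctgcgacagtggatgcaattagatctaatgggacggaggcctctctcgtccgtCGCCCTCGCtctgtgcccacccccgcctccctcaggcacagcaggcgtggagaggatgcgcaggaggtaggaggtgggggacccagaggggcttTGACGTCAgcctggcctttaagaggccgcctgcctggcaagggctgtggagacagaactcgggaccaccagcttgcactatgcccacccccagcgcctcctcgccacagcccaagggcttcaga
Dusp1, chr17:26645368-26645667, minus strand: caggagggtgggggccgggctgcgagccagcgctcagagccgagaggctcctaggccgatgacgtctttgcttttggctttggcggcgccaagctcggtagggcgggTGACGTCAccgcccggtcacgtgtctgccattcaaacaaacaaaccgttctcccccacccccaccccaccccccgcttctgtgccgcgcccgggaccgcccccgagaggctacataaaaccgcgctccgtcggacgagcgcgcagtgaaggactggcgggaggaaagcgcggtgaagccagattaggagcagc
Fosl2, chr5:32438595-32438894, plus strand: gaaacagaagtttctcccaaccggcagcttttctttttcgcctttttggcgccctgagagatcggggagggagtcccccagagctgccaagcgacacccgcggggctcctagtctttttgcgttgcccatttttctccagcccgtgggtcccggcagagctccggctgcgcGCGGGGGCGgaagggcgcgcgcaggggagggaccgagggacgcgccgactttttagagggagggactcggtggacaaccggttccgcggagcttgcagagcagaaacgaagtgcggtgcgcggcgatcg
The element begins 73 bases before the start in Sstr2, 52 in Epha2, 61 in Areg, 4 in Scg2, 74 in Th and 143 in Dusp1. In these 6 genes the lesioned side rose between acute and chronic treatment by 4.46, 3.27, 3.34, 1.39, 2.77 and 0.87, in the order listed.

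Among the losses on the lesioned side were chaperone genes that stood high after a single injection. Dnajb1, the main cytosolic HSP40 co-chaperone, read 109.9, 77.1 and 57.00 CPM in acute unlesioned, 1261, 994 and 797 in acute lesioned, 51.6, 72.2 and 44.4 in chronic unlesioned and 108, 249 and 121 in chronic lesioned striata. Its lesion effect shrank from 3.64 to 1.51, a change of -2.13 ± 0.43 (adjusted p = 0.00984). Dnajb9, a co-chaperone of the endoplasmic reticulum, read 180.5, 148 and 161 CPM in acute and 42.5, 42.7 and 38.6 in chronic lesioned libraries, with 28.4–34.8 CPM on the unlesioned side. The acute lesioned libraries were the only high ones, and the change was -1.98 ± 0.13 (adjusted p = 7.38e-07). Ppp1r15a, the stress-induced phosphatase subunit GADD34, fell from 66.3–85.7 to 27.8–47.96 CPM, a change of -1.02 ± 0.23, and Dnajb4 changed by -0.84 ± 0.20. The calls of these 2 genes were lost without 5 and 6 of the 12 libraries in turn.

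Chaperones fell on the lesioned side. Of 28 tested cytosolic heat shock chaperones, 21 fell and 2 rose on the lesioned side between acute and chronic treatment, while 1 gained and 2 lost lesion effect. On the unlesioned side 4 of them fell and 0 rose, with 2 to 8 falls as each library was left out and 11 without both chronic libraries numbered 2. The gain was Dnajb5, another HSP40 family member, at 211, 243 and 248 CPM in acute and 575, 622 and 651 in chronic lesioned striata. Its lesioned side rose while its unlesioned side fell from 166–181 to 121–131 CPM, a change of 1.86 ± 0.11. Of 25 tested genes of endoplasmic reticulum stress, 12 fell and 1 rose on the lesioned side, 8 fell on the unlesioned side, and 2 lost lesion effect. Over all genes 13.8% fell and 14.7% rose on the lesioned side, 1.92% fell on the unlesioned side, 3.6% gained and 1.5% lost lesion effect. The 8 falls of the unlesioned side ranged from 0 to 13 as each library was left out.

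Further losses were Gpx6, Orc1, C2, Heatr7b1, Dll3, Spef2, Pramef8 and Taf7. Gpx6, a glutathione peroxidase, read 8.501, 6.14 and 7.34 CPM in acute unlesioned, 5.37, 7.46 and 5.497 in acute lesioned, 2.403, 5.38 and 2.45 in chronic unlesioned and 0.165, 0.439 and 0.308 in chronic lesioned striata. It fell on both sides and by more on the lesioned one, where it ended near the counting limit, with a change of -3.14 ± 0.51. Orc1, a subunit of the origin recognition complex, read 4.04, 3.87 and 3.83 CPM in the acute lesioned libraries and at most 0.835 CPM in the other 9, a change of -2.91 ± 0.63 that was not called without the chronic unlesioned library numbered 1. Pramef8 (63.4, 57.1 and 57.3 CPM against 14.2–17.6) and Taf7, a subunit of the general transcription factor TFIID (44.4, 38.3 and 38.5 against 6.79–10.99), shared this pattern of a high acute lesioned group and 9 other libraries near each other. Heatr7b1 did so as well, with 6.85–8.003 CPM against 0.773–1.86. The complement gene C2 read 3.28–3.76 CPM against 0.702–1.49, and it overlaps Cfb on the same strand, so that reads could be shared. Spef2 and Dll3 stood at 0.494–2.24 and 0.439–1.66 CPM over all libraries, and the call of Spef2 was lost without 9 of the 12 libraries in turn. Ppm1n, a protein phosphatase, had 1.19 to 2.68 CPM in the acute lesioned libraries and at most 1 count in each of the other 9, yet its change was not called (adjusted p = 0.3).

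Of 76 tested ribosomal protein genes, 6 lost and 0 gained effect, 5 of them with the lesioned side called, and the list median was -0.24. Over all genes 1.5% lost and 3.6% gained effect. After acute treatment 24 of them were higher on the lesioned side, against 5.63% of all genes, and after chronic treatment 7, against 10.8%. On the lesioned side, 30 fell and 2 rose from acute to chronic treatment, against 13.8% and 14.7%. Called members such as Rpl31 (-0.55 ± 0.14), Rps14 (-0.52 ± 0.14) and Rpl4 (-0.38 ± 0.08) belong to a family with many processed copies in the genome, so their counts are uncertain. The number lost ranged from 1 to 8 as each library was left out.

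Both sides moved for 28 genes. The largest gains with a gene name and at least 1 CPM were Dnajb5, Hbegf and Ina, and in each the lesioned side rose while the unlesioned side fell. Hbegf, a heparin-binding EGF receptor ligand, read 28.4, 28.4 and 29.1 CPM in acute unlesioned, 34.5, 34.6 and 33.2 in acute lesioned, 22.1, 23.1 and 20.9 in chronic unlesioned and 67.3, 80.4 and 67.04 in chronic lesioned striata. The 2 unlesioned groups did not overlap, nor did the 2 lesioned groups, and the change was 1.45 ± 0.11. Ina, the neuronal intermediate filament internexin, changed by 1.44 ± 0.14. Losses after Gpx6 were Rbm3, a cold-inducible RNA-binding protein whose unlesioned side rose by 0.73 ± 0.09 while its lesioned side fell by 0.47, and Arl4d, a small GTPase that fell on both sides (-1.17 ± 0.17). Without both chronic libraries numbered 2 this class held 121 genes, and without single libraries 3 to 61.

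Where the unlesioned side alone moved, the lesion effect changed against a lesioned side that was not called. In the 19 gains the unlesioned side fell and in the 9 losses it rose. The median size of the change was 0.64, near the 0.69 of the lesioned side. Of the 28 genes, 6 carry only a clone or predicted identifier. Its members include transcription factors, lymphocyte proteins, metabolic enzymes and structural proteins.

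The transcription factors Junb, Fosl2 and Egr2 are its best known members. Junb, a partner of Fos in the AP-1 factor, read 112, 135 and 148 CPM in acute unlesioned and 90.1, 83.99 and 85.4 in chronic unlesioned striata, against 1118, 1033 and 1043 and 1108, 993 and 1245 on the lesioned side. The unlesioned groups did not overlap, the lesioned groups did, and the lesion effect grew from 3.02 to 3.69, a change of 0.67 ± 0.14 (adjusted p = 0.012). Fosl2, another AP-1 subunit, fell on the unlesioned side from 83.1, 90.6 and 71.7 to 36.8, 42.8 and 39.9 CPM with 455, 418 and 365 and 384, 446 and 285 CPM on the lesioned side, a change of 0.89 ± 0.20. Egr2, a zinc finger factor induced by activity, went from 29.9, 31.5 and 35.5 to 16.8, 20.4 and 13.9 CPM on the unlesioned side and from 559, 532 and 564 to 538, 411 and 460.1 on the lesioned side, a change of 0.69 ± 0.17. The lesioned values of both genes overlapped between treatments, and the estimates for that side were -0.15 ± 0.14 and -0.23 ± 0.12. Junb stayed in the class whichever of the 12 libraries was left out, Fosl2 in 11 of 12 cases (not without the acute unlesioned library numbered 2) and Egr2 in 3.

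Proteins of lymphocytes are encoded by 2 other gains, Ikzf3, a zinc finger factor (1.36 ± 0.31), and Bank1, a B cell scaffold (1.05 ± 0.27). Ikzf3 read 3.32, 2.48 and 3.296 CPM in acute and 1.62, 1.89 and 1.42 in chronic unlesioned striata, and Bank1 3.21, 3.31 and 3.47 and 1.704, 1.81 and 1.93. Their unlesioned groups did not overlap, yet they stayed in the class in only 4 and 3 of the 12 cases. The 5 tested blood markers summed to 20.7 to 41.2 CPM in acute and 8.7 to 21.3 CPM in chronic unlesioned striata, and their part in these calls was not tested. Cyp2s1, a cytochrome P450 (0.82 ± 0.20), and Mmp17, a membrane-anchored matrix metalloproteinase, were further gains. Cyp2s1 stayed in the class in 3 of the 12 cases. Mmp17 fell from 199.8, 206 and 221 to 132, 160.1 and 163 CPM on the unlesioned side while the lesioned side read 161–169.7 and then 165–207 CPM. Mmp17 was therefore lower on the lesioned side after acute and higher after chronic treatment, and it stayed in the class in 8 of the 12 cases. Dhcr7, the last enzyme of cholesterol synthesis, was the 1 sterol gene of this class (0.44 ± 0.11), and it stayed there in 3 of the 12 cases.

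In the losses of this class the unlesioned side rose. Those with a gene name and at least 1 CPM were Matn2, Pcnt, Srebf1 and Ddx21. Matn2, a matrix protein, rose from 8.31, 7.25 and 6.98 to 14.3, 10.4 and 11.7 CPM on the unlesioned side, and its lesioned libraries read 5.67–9.498 CPM. Srebf1, the transcription factor SREBP-1 of lipid synthesis, rose from 49.5, 58.4 and 58.3 to 73.9, 67.98 and 73.3 CPM with 63.5–81.5 CPM on the lesioned side, and its lesion effect went from 0.45 to -0.13. The unlesioned groups of both genes were separate. On the lesioned side Matn2 overlapped between treatments, whereas Srebf1 was lower in each chronic than in each acute library, a fall that was not called (-0.21 ± 0.08, adjusted p = 0.0659). The centrosomal scaffold Pcnt changed by -0.67 ± 0.16, and Ddx21, an RNA helicase of the nucleolus, by -0.50 ± 0.11. Srebf1 and Ddx21 stayed in the class in 7 of the 12 cases, Matn2 and Pcnt in 5. Of the members not yet described, Mat2a, which makes the methyl donor S-adenosylmethionine, gained 0.53 and stayed in the class in 9 cases, and Prkag2, a subunit of AMP-activated kinase, Aldh18a1, Pcmtd1, Ascc2 and Lace1 gained 0.40 to 0.47 and stayed in 1 or 2. Nanos2, Lrriq1 and Spink10 had means below 1 CPM.

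**Figure D3:**
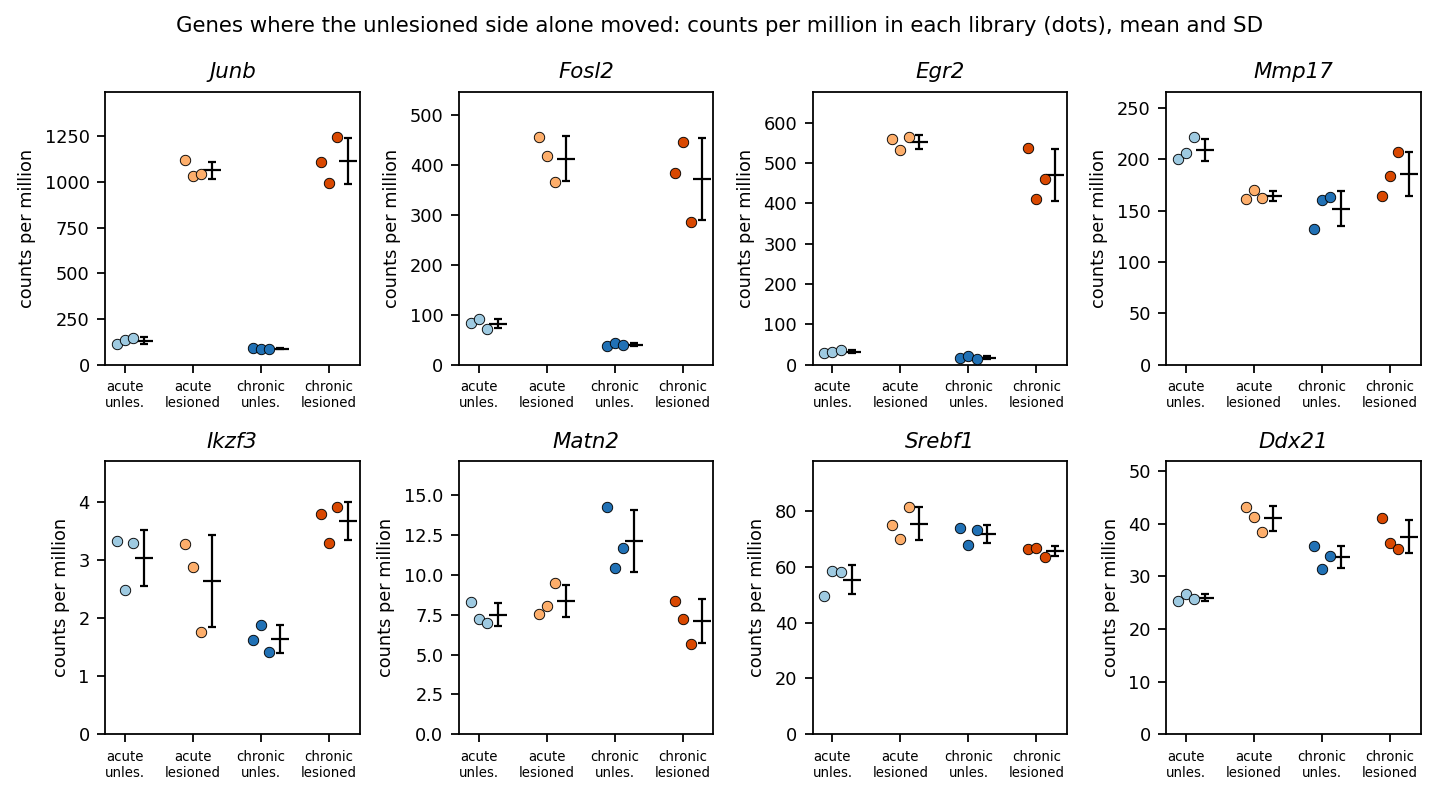
CPM values (y axis) of 8 genes of the class where the unlesioned side alone moved, with 1 dot per library, 3 libraries in each of the 4 groups, and the mean with its SD to the right of the dots. From acute to chronic treatment the unlesioned libraries fall in Junb, Fosl2, Egr2, Mmp17 and Ikzf3 and rise in Matn2, Srebf1 and Ddx21, without overlap between the 2 unlesioned groups in any of the 8 genes.

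The list of 30 immediate early transcription factors shows the 2 kinds of movement side by side. After acute treatment 24 of them were higher on the lesioned side and 1 lower, after chronic treatment 28 and 0, and 12 gained and 0 lost lesion effect, against 3.6% and 1.5% of all genes, with a list median of 0.37. Of the 12 gains, 9 belonged to the lesioned side: Klf5 (2.05 ± 0.18), Ier3 (1.88 ± 0.38), Klf10 (1.57 ± 0.22), Bhlhe40 (0.94 ± 0.19), Nr4a3 (0.91 ± 0.12), Ier5 (0.76 ± 0.12), Jund (0.71 ± 0.15), Jun (0.61 ± 0.15) and Egr3 (0.58 ± 0.11). Of these the call of Jun was lost without 7 of the 12 libraries in turn. Klf5 is the member that changed sign, from 4.902, 7.68 and 6.77 CPM in acute to 32.1, 27.5 and 25.2 in chronic lesioned striata around an unlesioned level of 13.1–14.8 CPM. The other 3 were Junb, Fosl2 and Egr2. On the unlesioned side 10 of the 30 fell and 0 rose, against 1.92% and 1.34% of all genes. That number ranged from 6 to 11 as each library was left out.

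Some of the strongest immediate early genes fell on both sides without a called change of the lesion effect. Fosb, the source of FosB proteins, read 39.6, 44.6 and 43.6 CPM in acute unlesioned, 1013, 1090 and 1142 in acute lesioned, 23.8, 20.4 and 22.02 in chronic unlesioned and 692, 656 and 698 in chronic lesioned striata. Each side fell without overlap, the lesion effect was 4.67 and then 4.95, and the change of 0.28 ± 0.11 was not called (adjusted p = 0.152). Atf3, a stress-induced factor, fell by 1.28 on the lesioned and 1.36 on the unlesioned side, with a change of 0.09 ± 0.39. Fos and Egr1, chosen after their values were seen, fell on both sides too and changed by 0.23 ± 0.20 and -0.33 ± 0.12, and 6 of the 30 genes in all were called lower on both sides. Klf4 (-0.08 ± 0.21) and Npas4 (-0.50 ± 0.26) were not called either. Nr4a2, an orphan nuclear receptor, rose on the lesioned side from 39.6, 26.3 and 24.4 to 191, 124 and 136 CPM, but its unlesioned libraries spread over 1.73–21.2 CPM. Its change of 2.44 ± 0.72 missed the threshold (adjusted p = 0.0682) and was called without both chronic libraries numbered 2 (2.07, adjusted p = 0.0231).

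**Figure D4:**
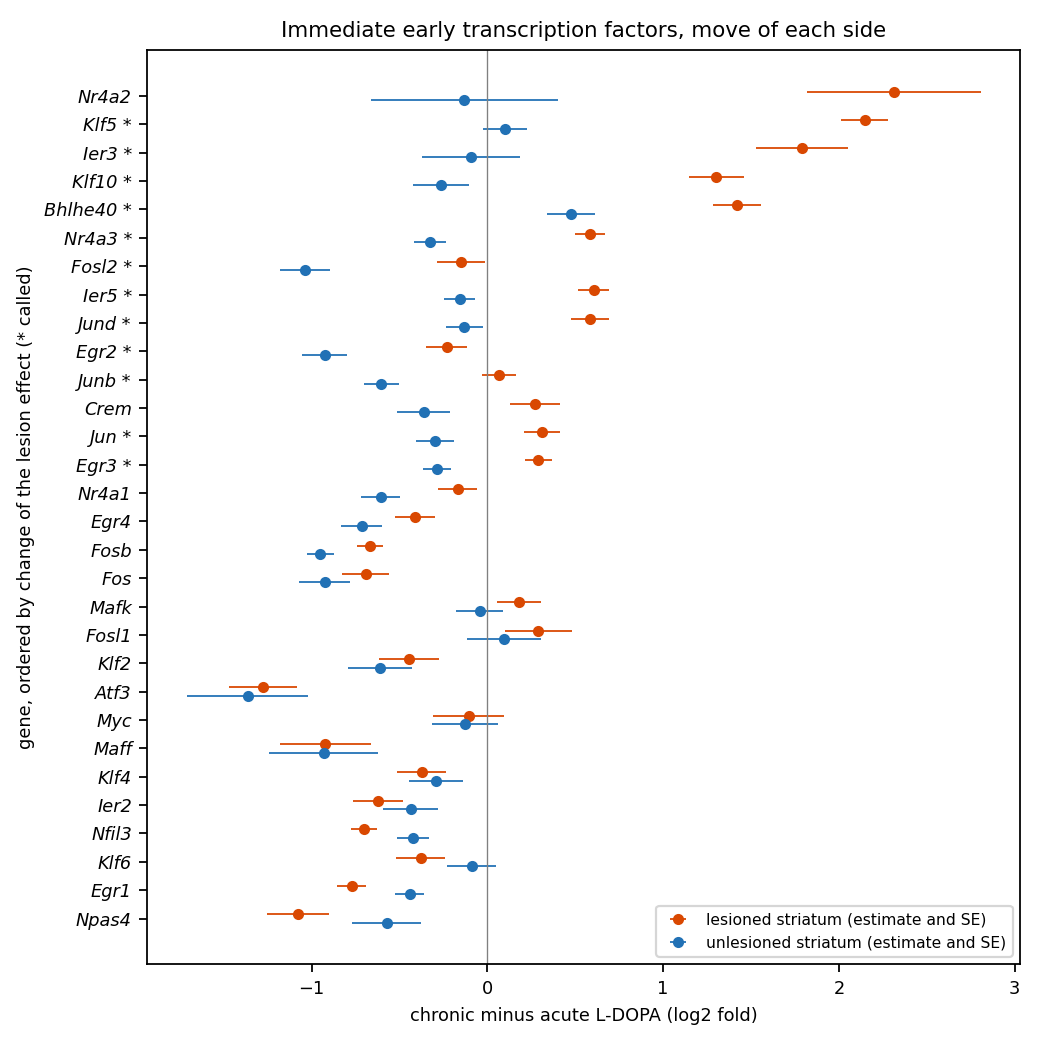
Chronic minus acute difference (log2 fold, estimate with its SE) of the lesioned striatum in orange and the unlesioned striatum in blue for 30 immediate early transcription factor genes, ordered by the change of their lesion effect, with an asterisk on the 12 called genes. In Junb, Fosl2 and Egr2 the blue points lie below 0 and the orange points near it, in Klf5, Ier3 and Klf10 the orange points lie far above 0, and in Fos, Fosb and Atf3 both points lie below 0.

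For 34 genes the difference was called although neither side was, and the sides moved in opposite directions by less. Plekhg4, a guanine nucleotide exchange factor (1.02 ± 0.26), and Sema7a, a membrane semaphorin (0.66 ± 0.18), were the named gains of at least 1 CPM, and Zkscan4 (-0.78 ± 0.20) and Snord12 (-0.65 ± 0.18) the named losses. The calls of these 4 genes were lost without 8 to 10 of the 12 libraries in turn.

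The size of the classes depended on single libraries. The class of the lesioned side alone held 670 to 1478 genes as each library was left out, the highest without the chronic lesioned library numbered 2. The class of the unlesioned side alone held 1 to 48 genes. It was smallest without the acute unlesioned library numbered 2 and largest without the chronic unlesioned library numbered 2, the one with choroid plexus markers. Of the 28 genes in it, 25 were still called in the change without the chronic lesioned library numbered 2, but 11 without the acute unlesioned library numbered 3.

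**Figure D5:**
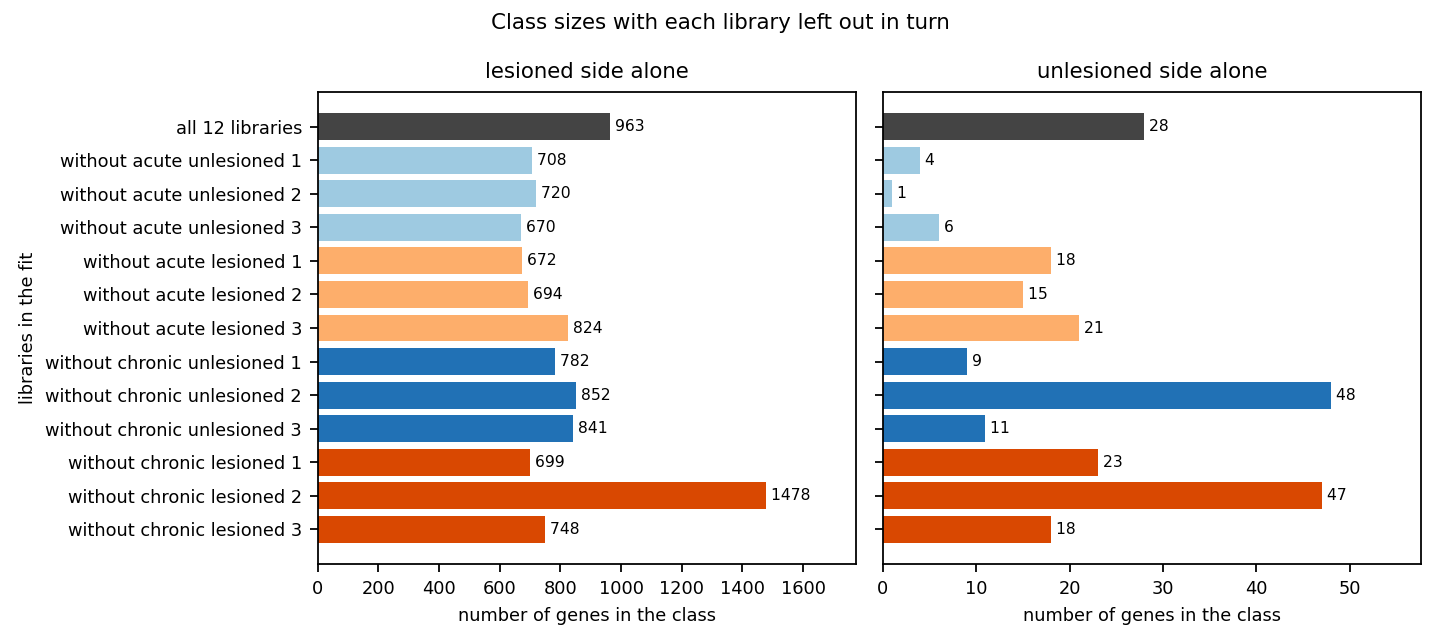
Number of genes in the class of the lesioned side alone (left) and of the unlesioned side alone (right), with all 12 libraries and with each library left out in turn, coloured by the group of that library. The left class stays between 670 and 1478 genes, and the right class falls to between 1 and 11 genes when an unlesioned library other than the chronic library numbered 2 is left out.

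Markers of oligodendrocytes and microglia fell on the lesioned side between treatments. Of 12 tested oligodendrocyte markers, 11 fell on the lesioned and 1 on the unlesioned side, against 13.8% and 1.92% of all genes, and 0 were called in the change by edgeR without a replicate block or by DESeq2, with 3 lower at an unadjusted p under 0.05 and a list median of -0.47. Without the chronic lesioned library numbered 2 there were 4 called losses among them. Without both chronic libraries numbered 2, 1 loss was called and 6 of the markers fell on the unlesioned side. Of 13 microglia markers, 11 fell on the lesioned and 4 on the unlesioned side, with 0 called in the change by either tool, 0 at an unadjusted p under 0.05 and a list median of -0.17. Their 4 falls of the unlesioned side ranged from 0 to 6 as each library was left out. The summed oligodendrocyte level ran from 10497 to 17477 CPM in acute lesioned, 5887 to 10512 in chronic lesioned, 10398 to 11629 in acute unlesioned and 7792 to 11303 in chronic unlesioned libraries, and the part of this shift in the classes was not tested. Cortical glutamatergic markers summed to 1377 to 1820 CPM on the unlesioned side and 1200 to 1747 CPM on the lesioned side. The 15 tested markers had a median lesion effect of -0.84 after acute and -1.29 after chronic treatment. Of them 2 and 3 were called lower and 0 higher, against 5.31% and 8.33% of all genes called lower. The median change of their lesion effect was -0.25.

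Some lists described here had 0 calls in 1 direction by edgeR without a replicate block. Their members in that direction were counted at an unadjusted p under 0.05 as well. There were 0 for losses of sterol genes, 0 for losses of D1 markers and 0 for gains of D2 markers. Immediate early factors and catecholamine genes had 2 losses each, activin and TGF-beta genes and peptide precursors 1 loss each, ribosomal proteins 1 gain and endoplasmic reticulum stress genes 1 gain. DESeq2 called 0 for each of these lists in that direction.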

How the data were processed

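Total RNA of 12 striatal samples, 3 in each of 4 groups, was sequenced, and the authors deposited read counts per transcript on mm9, made on a Genomatix Mining Station, with a read counted on every transcript it overlaps. The strand setting is not given in the sources used here. Per the submitters' notes the study tested with DESeq. Its 12 columns of normalized expression and 3 tables of its own fold changes and p-values were not used. Rows that name no gene (296, 0.0485% of counts) were left out.

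Of 189660 transcripts, the one with the highest mean CPM was kept per symbol, and filterByExpr left 20664 of 52169 symbols. TMM normalization and edgeR 4.0.16 quasi-likelihood tests (R 4.3.3) were fitted to all 4 groups, with 5 contrasts: the change of the lesion effect, each side from acute to chronic, and the lesion effect in each treatment. A gene was called at a Benjamini-Hochberg adjusted p under 0.05 over all genes tested. The SE is the estimate divided by the root of its F statistic. Summed over every transcript, a library held between 87744817 and 173190519 counts. Limits of 3 counts cover counting error only. The fit was tested on simulated data with 200 changed genes in 20385: it recovered 20% of 1.5-fold and 60% of 2-fold moves of the lesioned side, and 30% and 80% of the unlesioned side.

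Named genes were, among those averaging 1 CPM or more and without a clone, predicted or RIKEN identifier, the 10 largest gains and losses of the lesioned side class, 6 of the unlesioned side alone, 3 of both and 2 of neither, and, at any level, called members of the gene lists, and Atf3, Klf4, Npas4, Nr4a2, Nr4a3, Trh, Npy, Galr2, Fosb, Lipg and Ppm1n. Some genes that meet this rule are not reported here. The question, members and gene lists were chosen with earlier results of these data known. Promoter windows of 300 bases were read from the NCBIM37 (mm9) genome around the start of the kept transcript as the deposited table gives it, for 20635 of 20664 genes. Alternatives used DESeq2 1.42.0, other filters, thresholds and scalings, a GC and length trend (mgcv 1.9.3; GC known for 92.2% of genes), a cortical marker score, a replicate block, and libraries left out.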

Additional observations from a re-analysis of the deposited data

Results flagged for a closer look

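The lesion effect differed between acute and chronic L-DOPA by the edgeR test of the difference itself in 744 genes where the signed effect moved upwards and 309 where it moved downwards. In 6 named genes the lesion effect was called in opposite directions after the 2 treatments. The change was 3.27 in Pdyn, 2.26 in Sstr4, 2.05 in Klf5, 0.85 in Pde4b and 0.64 in Mmp17, where the lesioned side was the lower one after acute and the higher one after chronic treatment. It was -0.99 in Sorcs3, where the order was the reverse. In Mmp17 the unlesioned side alone moved, and in the other 5 the lesioned side alone did.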

How the results depend on the processing

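Of 155 named genes called, 98 kept call and direction without each of the 12 libraries in turn; 155 kept the call with DESeq2 size factors, 148 in DESeq2, 148 with no filter, 154 with the GC and length trend removed, 142 without both chronic libraries numbered 2, 123 at 1.5 fold and 83 at an adjusted p under 0.01. No named gene reversed. Where counts moved by more than 1.5 times the cause was not tested. At an adjusted p under 0.01, 363 gains, 95 losses, 3194 calls of the lesioned and 67 of the unlesioned striatum were left, with 445 genes of the lesioned side alone, 4 of both, 0 of the unlesioned side alone and 9 of neither. At 1.5 fold these were 493, 185, 2427, 299, 539, 3, 13 and 123. DESeq2 gave 1201 calls of the unlesioned striatum, 66 genes of both sides, 69 of the unlesioned side alone and 84 of neither. With no filter there were 829 losses, 2014 calls of the unlesioned striatum, 225 genes of both sides, 153 of the unlesioned side alone and 94 of neither. Removing the GC and length trend gave 50 of both and 51 of the unlesioned side alone, and the cortical score 48 of both. Fitting the contrast of each side on its own libraries, with the change still tested on all 12, gave 67 of neither. Classes by size of the moves gave 129 of both. Without both chronic libraries numbered 2, chosen after seeing the data, there were 478 losses, 1853 calls of the unlesioned striatum, 121 genes of both sides and 72 of the unlesioned side alone.

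Leaving out each library in turn gave 503 to 1057 gains, 188 to 580 losses, 3963 to 6506 calls of the lesioned and 69 to 1125 of the unlesioned striatum. The classes held 670 to 1478 genes of the lesioned side alone, 3 to 61 of both, 1 to 48 of the unlesioned side alone and 12 to 51 of neither.

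Replicate numbers were checked for pairing. Deviations of libraries with the same number correlated at 0.085 to 0.472 in 6 pairs, other numbers at -0.406 to 0.149, and 11 of 12 libraries correlated best with their own number, a hint from the data only. The replicate block entered the test of the change only, and the calls of each side in the classes below came from fits without it. With the replicate block there were 1534 gains, 1221 losses, 2140 genes of the lesioned side alone, 70 of both, 71 of the unlesioned side alone and 474 of neither. Of the chaperones 3 gained and 6 lost effect with the block, 7 oligodendrocyte markers and 19 ribosomal protein genes lost it, and 11 cAMP signaling and 12 oxidative phosphorylation genes gained it. With the block and the GC and length trend removed there were 1867, 1381, 2548, 103, 109 and 488.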

Other observations

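Of 78 tested subunits of oxidative phosphorylation, 22 were higher and 4 lower on the lesioned side with repeated treatment, against 14.7% and 13.8% of all genes, with 0 called on the unlesioned side. Of these genes 4 gained and 2 lost lesion effect, against 3.6% and 1.5%. The gains include Sdhb of complex II (0.38), Cox5a of complex IV (0.61) and Atp5g3 of the ATP synthase (0.35). The losses were Cox6a2 (-0.95) and Cox7a2l (-0.33). Leaving out each library in turn gave 2 to 8 gains and 0 to 1 losses. The calls of Sdhb, Atp5g3 and Cox6a2 were each lost in 9 of these 12 fits, and that of Cox7a2l in 8. Of 16 replication-dependent histone genes 12 fell and 2 rose on the lesioned side, against 13.8% and 14.7% of all genes, and 8 fell on the unlesioned side, against 1.92%. Of them 0 changed their lesion effect at an adjusted p under 0.05 in edgeR without a replicate block or in DESeq2. At an unadjusted p under 0.05 in edgeR, 1 was lower. The 8 falls of the unlesioned side ranged from 1 to 8 as each library was left out.

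Among 30 Polycomb and H3K27 demethylase genes, 3 gained and 3 lost effect, against 3.6% and 1.5% of all genes. The demethylase Kdm6b gained 0.67, while Cbx7 changed by -0.57, Phf1 by -0.69 and Jarid2 by -0.63. Of 17 tested clock genes 2 gained and 2 lost effect, against 3.6% and 1.5% of all genes. The gains were Per1 (0.48) and Bhlhe40 (0.94), and the losses Per3 (-0.74) and Dbp (-0.53). The call of Dbp was lost without 5 of the 12 libraries in turn. Of 26 tested interferon response genes 0 changed their lesion effect in edgeR without a replicate block or in DESeq2. At an unadjusted p under 0.05 in edgeR, 1 was lower. On the lesioned side 5 fell and on the unlesioned side 1, against 13.8% and 1.92% of all genes. Without the chronic lesioned library numbered 2, 7 fell on the unlesioned side and 1 lost lesion effect.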
